A study of Mus musculus with 12 samples.

Results

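This section concerns 10 genes that are known markers of pericentral hepatocytes or direct targets of Wnt signaling: *Glul*, *Oat*, *Slc1a2*, *Lgr5*, *Axin2*, *Tbx3*, *Rhbg*, *Slc22a3*, *Rnf43* and *Znrf3*. They were taken by symbol from the 45777 genes of the deposited table, and each symbol was found once. All 10 passed the filter on low counts in every comparison.

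Hepatocytes are zonated along the liver lobule, from the portal vein, where blood enters, to the central vein, where it leaves. Endothelial cells of the central vein secrete Wnt ligands and the R-spondin RSPO3, and the resulting β-catenin activity in the neighboring hepatocytes sustains the pericentral program. That program covers glutamine synthesis, ammonia scavenging and much of cytochrome P450 metabolism. APAP (acetaminophen) is a painkiller that a P450 enzyme of these cells, CYP2E1, turns into a reactive metabolite, and overdose therefore injures the pericentral zone first.

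Liver RNA of 12 male C57BL/6 mice was sequenced, 3 mice in each of 4 groups. WT mice and mice labelled Gα12-/- (called KO here, a constitutive *Gna12* knockout compared with age-matched littermates) received either vehicle or 1 intraperitoneal dose of APAP at 300 mg/kg, and the livers of the APAP groups were taken at 6 h. Mice were aged 10 to 12 weeks by the labels and, by the methods, were fasted overnight before APAP. *Gna12*, the targeted gene, had 1193 to 4373 counts in the WT livers and 2472 to 4003 in the livers labelled KO. Since it was not lower under the KO label, genotypes are named by label throughout, and which part of *Gna12* was deleted is not given in the sources used here. The study itself checked WT littermates and KO mice by PCR of tail DNA, liver qRT-PCR for *Gna12* and Gα12 immunoblots. Whether the sequenced mice were among those checked is not stated. Each liver had between 49737950 and 69566079 reads assigned to genes. General hepatocyte markers (*Alb*, *Apoa1*, *Ttr* and 3 others) summed to between 61142 and 135594 CPM per liver (CPM is the count scaled to library size by edgeR's TMM method), and none was at 0. These are bulk tissue data, so fewer pericentral cells and less RNA per cell cannot be told apart, and position within the lobule was not measured. The p-values of edgeR, DESeq2 and limma weigh a difference between groups against the spread between the livers of a group.

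The promoters of *Slc1a2* and *Slc22a3* are shown because these genes fell most after APAP and because theirs were the only ones, of the 6 genes matched in the RefSeq promoter table, to hold the core of the site bound by TCF/LEF factors, the DNA-binding partners of β-catenin. The letters searched were CTTTGA and CTTTGT on both strands, over the 250 bases before each start. Each window held 2 matches, printed in capitals.
*Slc1a2*, GRCm38.p6 (mm10), chr2:102706188-102706437, plus strand: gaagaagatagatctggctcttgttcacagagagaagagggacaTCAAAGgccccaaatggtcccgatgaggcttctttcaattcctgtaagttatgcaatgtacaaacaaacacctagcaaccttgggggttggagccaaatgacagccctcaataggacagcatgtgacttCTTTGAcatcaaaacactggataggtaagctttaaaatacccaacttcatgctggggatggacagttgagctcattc
*Slc22a3*, GRCm38.p6 (mm10), chr17:12507705-12507954, minus strand: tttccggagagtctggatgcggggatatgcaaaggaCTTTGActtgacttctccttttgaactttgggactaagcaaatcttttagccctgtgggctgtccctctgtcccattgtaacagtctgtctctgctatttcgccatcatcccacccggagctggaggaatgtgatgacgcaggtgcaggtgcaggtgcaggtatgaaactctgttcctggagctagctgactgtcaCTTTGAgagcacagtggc
Counted from the start, the *Slc1a2* matches began at -206 and -77, the first as the reverse complement TCAAAG. The start used for this window lies inside the annotated gene (chromosome 2, 102658239 to 102790784), which has an earlier start as well. Those of *Slc22a3* began at -214 and -18, and the gene itself runs from 12419972 to 12507704 on chromosome 17. The windows of *Glul*, *Oat*, *Axin2* and *Rnf43* (2 windows) held neither sequence. The *Axin2* window (chromosome 11, 108920099 to 108920348) and the second *Rnf43* window (chromosome 11, 87699647 to 87699896) also lie inside the annotated genes. The bases before the earlier *Axin2* start were not searched, and which starts the liver uses was not examined. Of all 32851 windows in the table, 9075 (27.6%) held at least 1 match and 1692 (5.15%) at least 2, so a match is common and is given as a description only.

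To examine how the pericentral program responded to APAP, treated and vehicle livers were compared over all 12 livers and within each genotype label. The response was split. The genes for glutamine synthesis, ornithine and ammonia handling and 2 membrane transporters (*Glul*, *Oat*, *Rhbg*, *Slc1a2* and *Slc22a3*) were lower in every APAP liver than in any vehicle liver. *Lgr5* was lower to a lesser degree, whereas *Rnf43*, *Znrf3*, *Axin2* and *Tbx3* did not pass the test over 12 livers. By edgeR's quasi-likelihood test over 12 livers, with the genotype label as a covariate, 6 of the 10 genes were lower at an adjusted p-value under 0.05, where 11.4% of the 16509 genes tested were, and 0 were higher, where 14.0% were. None of the 10 was higher at an unadjusted p-value under 0.05 either, and DESeq2's Wald test and limma also called 0 higher. The groups did not overlap, with APAP lower, for 5 of the 10 genes, against 5.37% of all genes tested. The median log2 fold change of the 10 genes was -1.40, beside 0.0092 over all genes tested. The plot of the 10 genes by liver shows this split.

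**Figure D1:**
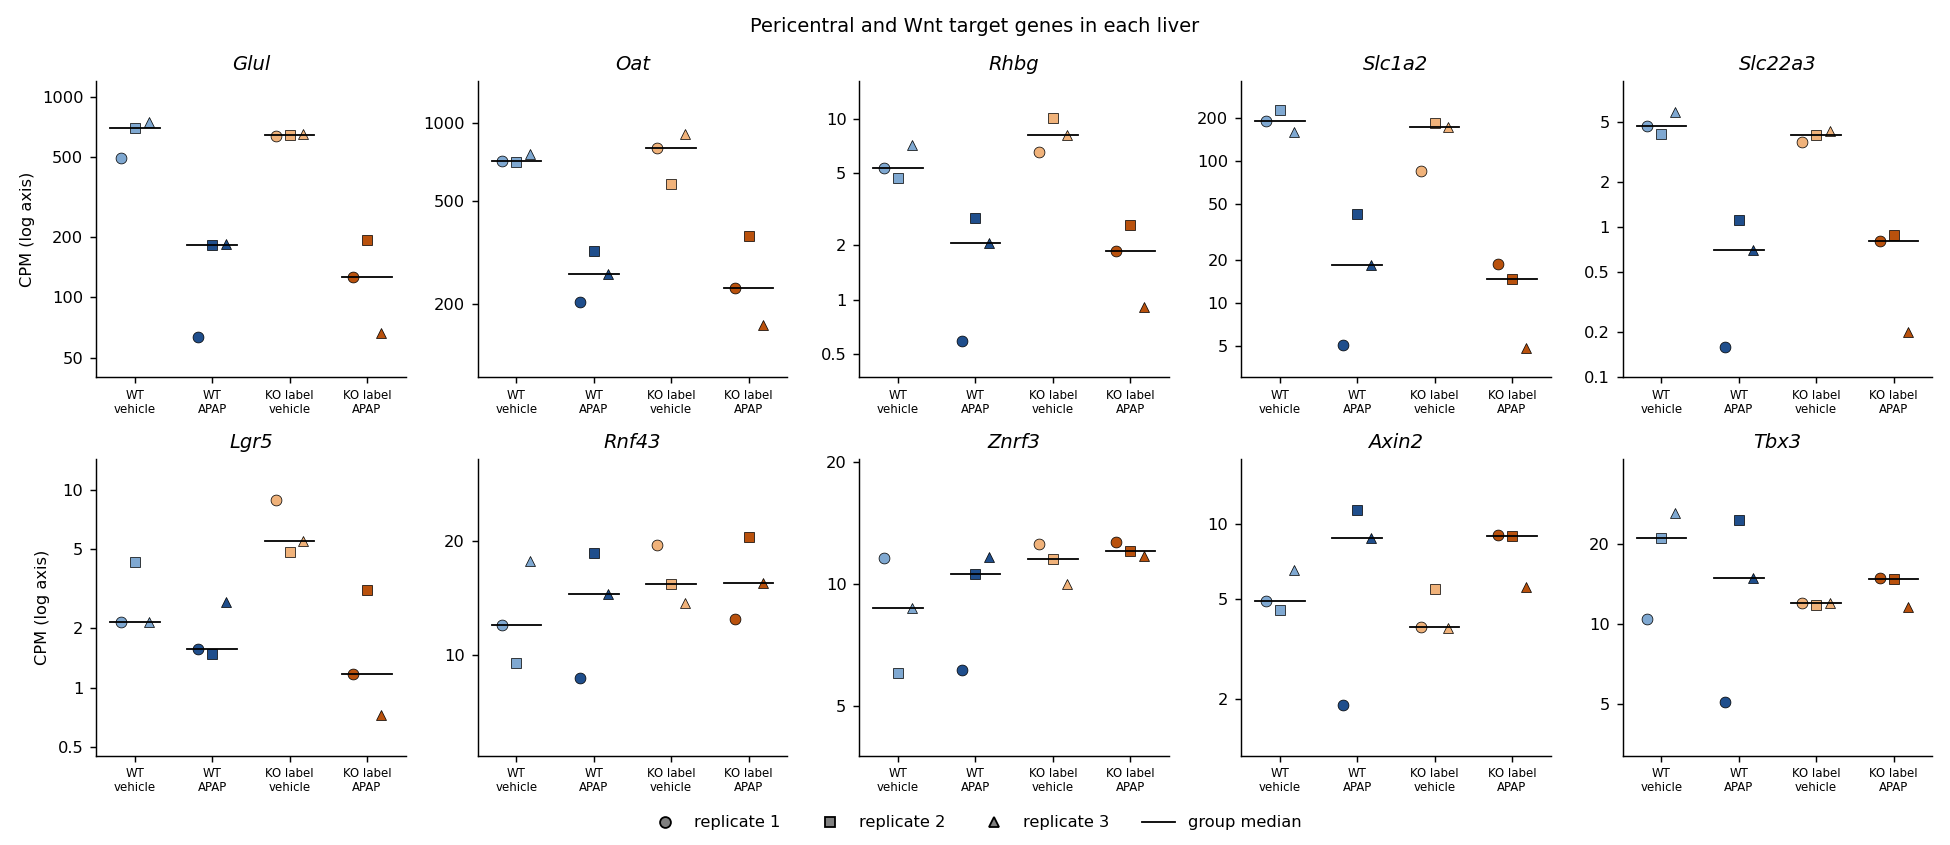
Level of each of the 10 genes in each liver, in CPM on a log axis, with 1 symbol per replicate number and a bar at the group median (n = 3 livers a group). In the top row every APAP liver lies below every vehicle liver, whereas in the bottom row the groups overlap, apart from *Lgr5* and *Axin2* under the KO label.

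In WT livers alone, 2 of the 10 genes (*Glul* and *Oat*) were lower at an adjusted p-value under 0.05, where 0.427% of 15693 genes were. None was higher, where 1.62% of all genes were, none was higher at an unadjusted p-value under 0.05, and DESeq2 and limma called none higher. The groups did not overlap, with APAP lower, for 5 of the 10, against 11.9% of all genes. The number called in WT livers depended on the test and on single livers, from 0 to 5 lower. DESeq2's Wald test called 5 of the 10 lower, where it called 3.42% of all genes lower, and without WT APAP replicate 1 edgeR called 4, where 0.314% of all genes were. In livers labelled KO, 6 of the 10 were lower (9.60% of 15665 genes) and 1, *Axin2*, was higher (13.0% of all genes). There the groups did not overlap for 6 lower genes (21.1% of all genes) and 1 higher gene (21.8% of all genes). The larger number called under the KO label went with more calls over all genes in that comparison, and no gene of the 10 passed the test of the difference between the labels, which is given below.

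*Glul* (gene ID 14645, chromosome 1, 153899929 to 153909723) encodes glutamine synthetase, which joins ammonia to glutamate in the last hepatocytes before the central vein. WT livers given vehicle (replicates 1 to 3) held 494, 703 and 751 CPM of it, and the WT APAP livers 63.7, 183 and 185 CPM. Under the KO label it stood at 636, 649 and 651 CPM with vehicle and at 126, 192 and 66.4 CPM after APAP. The lowest vehicle liver was thus above the highest APAP liver under both labels, and WT APAP replicate 1 and KO APAP replicate 3 were the lowest of the 12. *Glul* fell 4.77-fold over 12 livers (log2 fold change -2.25, SE 0.29, adjusted p = 0.00019). The exact permutation test of treatment within each label (two-sided, 400 arrangements) gave p = 0.005, the smallest it can give. Within WT livers the log2 fold change was -2.17 (95% interval -3.14 to -1.19, adjusted p = 0.0492), and within livers labelled KO it was -2.32 (95% interval -3.10 to -1.55, adjusted p = 0.00337). The WT call lies close to the threshold and was kept only without WT APAP replicate 1 (adjusted p = 0.0278) among 6 fits with a liver left out, with adjusted p-values up to 0.152.

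*Oat* (gene ID 18242, chromosome 7, 132557475 to 132576398) encodes ornithine aminotransferase, which feeds ornithine into glutamate in the same cells. The WT vehicle livers held 712, 706 and 760 CPM and the WT APAP livers 204, 321 and 262 CPM. The vehicle livers labelled KO held 802, 581 and 910 CPM and the APAP livers 231, 368 and 167 CPM. Groups did not overlap under either label. *Oat* fell 2.88-fold over 12 livers (log2 fold change -1.52, SE 0.19, adjusted p = 0.000173), with -1.46 in WT livers (SE 0.23, adjusted p = 0.0256) and -1.57 in livers labelled KO (SE 0.30, adjusted p = 0.0089). Its change was the smallest of the 5 genes whose groups did not overlap. In WT livers it did not pass without WT vehicle replicate 1 or 3 or WT APAP replicate 3, with adjusted p-values up to 0.128.

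*Rhbg* (gene ID 58176, chromosome 3, 88242874 to 88254739) encodes an ammonia channel of the hepatocyte membrane. It was a low transcript, at 5.35, 4.72 and 7.15 CPM in WT vehicle livers and 0.596, 2.83 and 2.05 CPM in WT APAP livers. Livers labelled KO held 6.53, 10.1 and 8.15 CPM with vehicle and 1.87, 2.57 and 0.911 CPM after APAP. Every APAP liver was below every vehicle liver, although the WT comparison did not pass the adjusted threshold (log2 fold change -1.64, 95% interval -2.82 to -0.45, adjusted p = 0.149). *Rhbg* fell 4.60-fold under the KO label (log2 fold change -2.20, SE 0.36, adjusted p = 0.00487), and over 12 livers 3.80-fold (adjusted p = 0.00144, exact permutation p = 0.005). Of the 10911 genes compared, *Rhbg* was the one whose centred log2 CPM profile over the 12 livers lay nearest to that of *Glul*, with a root-mean-square difference of 0.346, where the *Glul* profile itself had a root mean square of 1.29. The next nearest were *Gm5524* (0.499) and *C730036E19Rik* (0.504). These differences describe likeness over 12 livers that share the treatment contrast.

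*Slc1a2* (gene ID 20511) encodes GLT-1, a glutamate transporter that in liver is found on pericentral hepatocytes, and its promoter window is printed above. The WT vehicle livers held 189, 226 and 160 CPM, and the WT APAP livers 5.14, 42.1 and 18.7 CPM. The vehicle livers labelled KO held 85.1, 183 and 172 CPM, and the APAP livers 18.9, 14.8 and 4.84 CPM. The APAP livers spread over a wider fold range than the vehicle livers, yet the highest of them stayed below the lowest vehicle liver. *Slc1a2* had the largest fall of the 10 genes, 9.96-fold over 12 livers (log2 fold change -3.32, SE 0.46, adjusted p = 0.000322, exact permutation p = 0.005). It fell 11.3-fold under the KO label (log2 fold change -3.50, adjusted p = 0.0033). In WT livers its log2 fold change of -3.12 (95% interval -4.66 to -1.58) missed the threshold at an adjusted p = 0.0628, and DESeq2's Wald test gave 3.39e-06 for it.

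*Slc22a3* (gene ID 20519) encodes organic cation transporter 3, and its promoter is the other one printed above. It had 249, 198 and 294 counts in WT vehicle livers (4.68, 4.15 and 5.87 CPM) and only 8, 84 and 44 in WT APAP livers (0.159, 1.12 and 0.700 CPM). The vehicle livers labelled KO had 220, 212 and 197 counts (3.69, 4.13 and 4.35 CPM), and the APAP livers 46, 55 and 14 (0.804, 0.879 and 0.199 CPM). Counting error is therefore largest for the 2 lowest APAP livers, which were again WT APAP replicate 1 and KO APAP replicate 3. *Slc22a3* fell 6.88-fold over 12 livers (log2 fold change -2.78, SE 0.40, adjusted p = 0.000382, exact permutation p = 0.005), and 6.45-fold under the KO label (adjusted p = 0.00603). In WT livers its log2 fold change was -2.86 (95% interval -4.24 to -1.49, adjusted p = 0.0574).

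**Figure D2:**
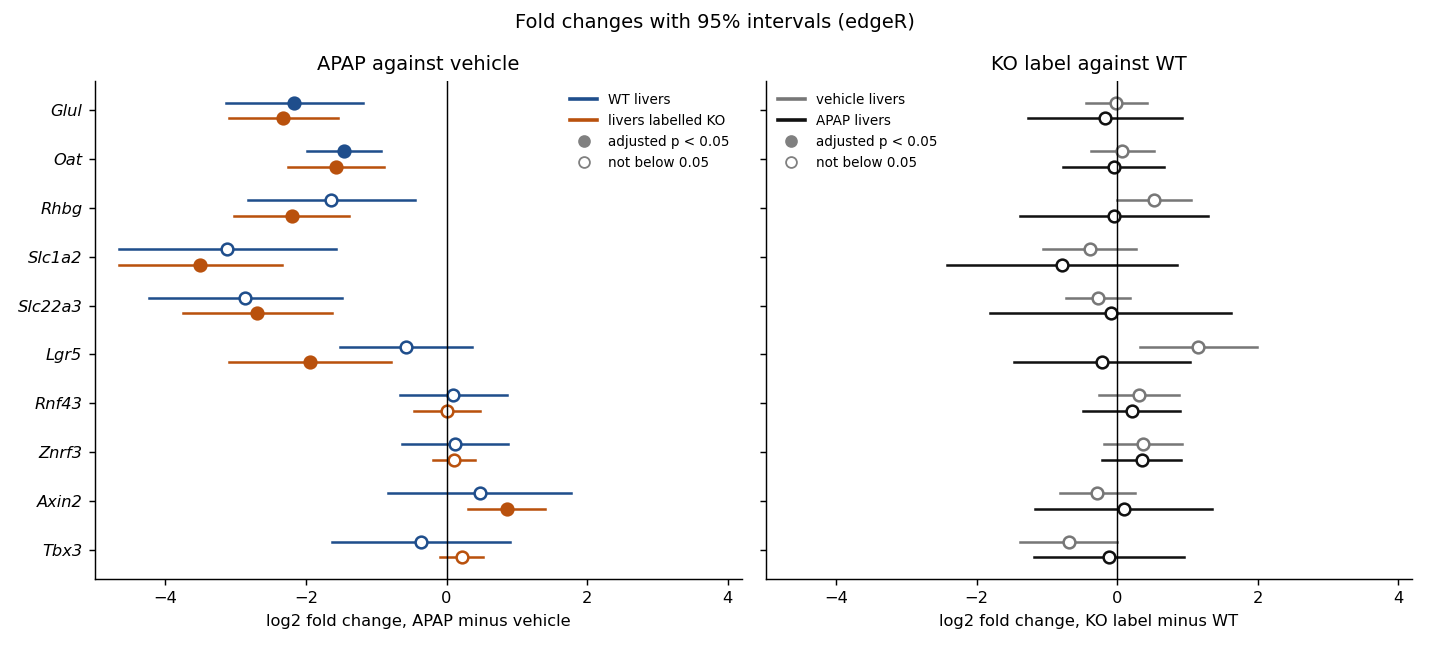
Log2 fold changes of the 10 genes with 95% intervals from edgeR, for APAP against vehicle (left) and for the KO label against WT (right). Points are filled where the adjusted p-value is under 0.05. The intervals of the 5 genes at the top exclude 0 under both labels on the left, and no point is filled on the right.

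The 10 genes include 3 that act at the Wnt receptor. LGR5 is an R-spondin receptor that strengthens the Wnt response, and RNF43 and ZNRF3 are membrane ubiquitin ligases that remove Frizzled receptors and are themselves held in check by R-spondins. *Lgr5* (gene ID 14160, chromosome 10, 115450314 to 115587780) had 2.14, 4.34 and 2.16 CPM in WT vehicle livers and 1.57, 1.47 and 2.70 CPM in WT APAP livers, and these groups overlapped. Under the KO label it had 8.90, 4.83 and 5.48 CPM with vehicle and 1.17, 3.10 and 0.726 CPM after APAP, and the groups did not overlap. *Lgr5* fell 3.83-fold under the KO label (log2 fold change -1.94, SE 0.50, adjusted p = 0.0276), whereas in WT livers the log2 fold change was -0.58 (95% interval -1.51 to 0.36, adjusted p = 0.492). The call under the KO label held only without KO APAP replicate 2 among 6 fits with a liver left out, with adjusted p-values up to 0.0844. Over 12 livers *Lgr5* was 2.41-fold lower (log2 fold change -1.27, SE 0.40, adjusted p = 0.034, exact permutation p = 0.015), a call that held in 5 of 12 such fits. It was lost without WT vehicle replicate 2, WT APAP replicate 2, any 1 of the 3 KO vehicle livers, or KO APAP replicate 1 or 3.

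*Rnf43* (gene ID 207742, chromosome 11, 87663087 to 87735539) had 8.66 to 18.5 CPM in the WT APAP livers beside 9.52 to 17.6 CPM with vehicle, and 12.4 to 20.5 CPM beside 13.7 to 19.5 CPM under the KO label. *Znrf3* (gene ID 407821, chromosome 11, 5276329 to 5444847) had 6.12 to 11.7 CPM beside 6.02 to 11.6 CPM in WT livers, and 11.7 to 12.7 CPM beside 10.0 to 12.6 CPM under the KO label. For both genes treated and vehicle livers overlapped under both labels. Over 12 livers the log2 fold change of *Rnf43* was 0.04 (95% interval -0.40 to 0.48, adjusted p = 0.902) and that of *Znrf3* was 0.10 (95% interval -0.28 to 0.48, adjusted p = 0.713). The sign of the *Rnf43* value under the KO label changed with the scaling.

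AXIN2 is a scaffold of the β-catenin destruction complex, and its gene is a widely used readout of Wnt signaling. *Axin2* (gene ID 12006, chromosome 11, 108917828 to 108950783) had 4.94, 4.53 and 6.59 CPM in WT vehicle livers and 1.89, 11.4 and 8.79 CPM in WT APAP livers. WT APAP replicate 1 was the lowest of the 12 livers, while WT APAP replicates 2 and 3 were above every vehicle liver. Under the KO label *Axin2* had 3.88, 5.49 and 3.85 CPM with vehicle and 9.07, 9.02 and 5.62 CPM after APAP, and the groups did not overlap. It was 1.81-fold higher under the KO label (log2 fold change 0.85, SE 0.24, adjusted p = 0.0344). The value in WT livers was 0.47 (95% interval -0.83 to 1.77, adjusted p = 0.696), and over 12 livers 0.65 (SE 0.33, adjusted p = 0.168, exact permutation p = 0.32). Without WT APAP replicate 1 it was 0.88 over the remaining livers with an adjusted p = 0.00274, and 0.92 in WT livers with an adjusted p = 0.118. The call under the KO label held only without KO vehicle replicate 2 or KO APAP replicate 3 among 6 fits with a liver left out, with adjusted p-values up to 0.109, and did not pass with limma on quantile-normalized log2(TPM + 1) (0.58, adjusted p = 0.0653).

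*Tbx3* (gene ID 21386, chromosome 5, 119670534 to 119684724) encodes a T-box repressor that marks pericentral hepatocytes. It had 10.5, 21.1 and 26.2 CPM in WT vehicle livers and 5.10, 24.6 and 14.9 CPM in WT APAP livers, and 11.8 to 12.1 CPM with vehicle and 11.6 to 14.9 CPM after APAP under the KO label. Treated and vehicle livers overlapped under both labels, and WT APAP replicate 1 was again the lowest of the 12. Its log2 fold change over 12 livers was -0.08 (95% interval -0.76 to 0.59, adjusted p = 0.876).

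On the per-length scale of TPM, which permits comparison between genes, *Oat* stood highest with vehicle (median 551 TPM over 6 livers), followed by *Glul* (375), *Slc1a2* (29.0), *Rhbg* (5.84), *Rnf43* (5.45), *Tbx3* (4.44), *Znrf3* (2.35), *Slc22a3* (2.02), *Axin2* (1.86) and *Lgr5* (1.44). The ranges of *Oat* (449 to 731) and *Glul* (304 to 445) did not overlap with each other or with the rest, and neither did that of *Slc1a2* (17.0 to 37.6), whereas each of the other 7 overlapped with its neighbors among them. After APAP, the medians of *Oat* (205) and *Glul* (98.1) still led, with ranges that now overlapped (94.3 to 313 and 22.6 to 126). The *Slc1a2* median (3.16) came below those of *Rnf43* (6.36), *Tbx3* (5.50) and *Axin2* (3.56), and its range (0.551 to 9.75) overlapped with theirs. The *Slc22a3* median (0.387) came last, with a range (0.0398 to 0.592) that overlapped with that of *Lgr5* (0.288 to 1.20).

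**Figure D3:**
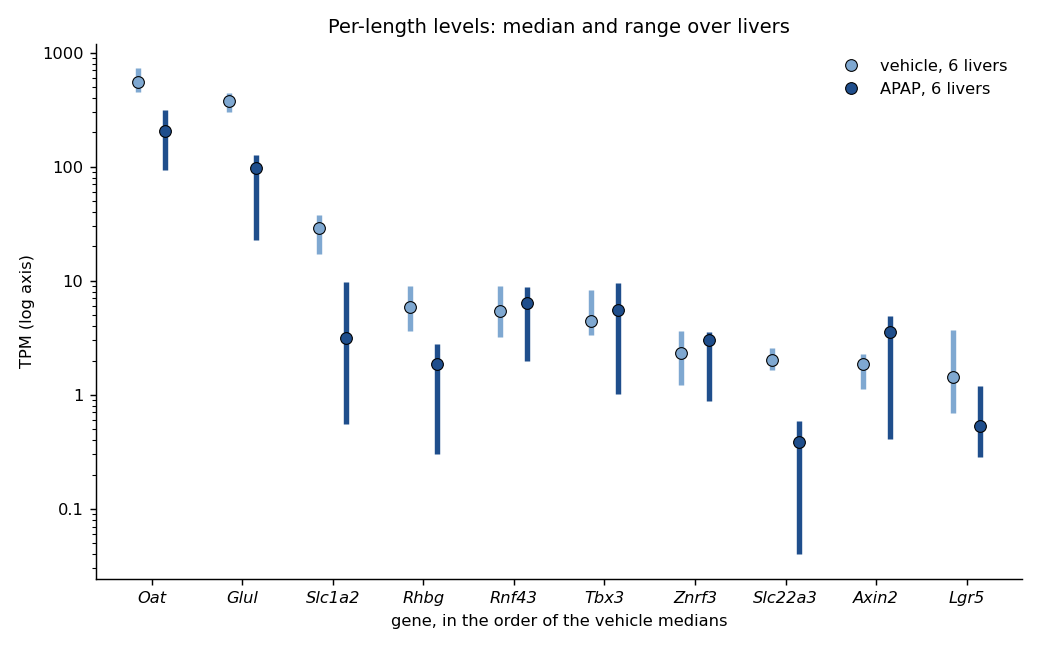
Level of each gene in TPM on a log axis, as the median (point) and range (bar) over 6 vehicle livers and 6 APAP livers, both genotype labels together. *Oat*, *Glul* and *Slc1a2* stand above the other genes with vehicle, and after APAP the *Slc1a2* median of 3.16 TPM lies among those of the low genes.

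The livers labelled KO were next compared with WT livers under the same treatment. With vehicle, 0 of the 10 genes passed edgeR's adjusted threshold (0.0262% of all 15262 genes did), and 1 had an unadjusted p-value under 0.05. After APAP, 0 passed (0.0309% of 16174 genes) and 0 had an unadjusted p-value under 0.05. DESeq2's Wald test and limma also called 0 of the 10 in both. *Lgr5* was the gene with the unadjusted p-value under 0.05 (log2 fold change 1.16, 95% interval 0.32 to 1.99, unadjusted p = 0.0129, adjusted p = 0.581). It had 4.83 to 8.90 CPM in vehicle livers labelled KO and 2.14 to 4.34 CPM in WT vehicle livers. The share of all genes whose groups separated was not counted for either comparison of the labels. The vehicle livers labelled KO are also those against which the fall of *Lgr5* under that label was measured. The 9 stellate cell and fibroblast markers summed to 229 to 313 CPM in vehicle livers labelled KO and to 170 to 201 CPM in WT vehicle livers, without overlap. Of these 9, 7 had a log2 fold change above 0 (median 0.46, beside 0.0069 over all genes tested) and 5 had an unadjusted p-value under 0.05, all higher (*Col1a1*, *Col3a1*, *Dcn*, *Lrat* and *Reln*), as did 1154 of all 15262 genes in either direction. None passed edgeR's adjusted threshold, the collagen gene *Col3a1* being 3.59-fold higher (adjusted p = 0.468). Of the 5 red blood cell markers, 3 had an unadjusted p-value under 0.05 (*Hbb-bs* and *Hbb-bt* higher, *Alas2* lower) and none passed. The part of these cells in the *Lgr5* value was not tested. With vehicle, *Tbx3* had a log2 fold change of -0.69 (adjusted p = 0.654) and *Rhbg* one of 0.52 (adjusted p = 0.654). After APAP, the *Znrf3* groups did not overlap (6.12 to 11.704 CPM in WT and 11.714 to 12.7 CPM under the KO label), by a margin far below the spread within WT (log2 fold change 0.35, adjusted p = 0.958). In these livers all 6 tested neutrophil markers were lower under the KO label at an unadjusted p-value under 0.05 (edgeR), and none passed. The 10 listed summed to 12.7 to 131 CPM in WT livers and 1.15 to 8.55 CPM under the KO label. So were all 5 red blood cell markers lower, with overlapping sums (334 to 17366 and 253 to 452 CPM). Of all 16174 genes, 536 had such a p-value in either direction. The part of these cells in the 10 genes was not tested. For *Glul* the 95% interval was -0.44 to 0.42 with vehicle and -1.26 to 0.92 after APAP. Differences within these intervals are not excluded by the 3 livers a group.

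Whether the response to APAP differed between the labels was tested as an interaction over 12 livers. By edgeR, 0 of the 10 genes passed the adjusted threshold, as did 0% of all 16509 genes, and 0 of the 10 had an unadjusted p-value under 0.05, and DESeq2 and limma called 0 of the 10 as well. The largest interaction was that of *Lgr5* (log2 -1.36, 95% interval -2.90 to 0.18, unadjusted p = 0.0784, adjusted p = 0.872). That of *Glul* was -0.16 (95% interval -1.41 to 1.09) and that of *Oat* was -0.11 (95% interval -0.97 to 0.74). The falls under the labels are thus not shown to differ.

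Single livers weighed on several of these values. WT APAP replicate 1 was the lowest of its group for 9 of the 10 genes, beside 43.2% of the 16509 genes tested, and KO APAP replicate 3 was the lowest of its group for 9 of the 10, beside 33% of genes. The other 10 livers were the lowest of their group for 0 to 6 of the 10. In WT APAP replicate 1 the 5 red blood cell markers, hemoglobins among them, summed to 17366 CPM, beside 253 to 749 CPM in the other 11 livers. None of these 5 genes passed the test over 12 livers. The same liver had the highest summed CPM of the 12 for 7 other lists. The neutrophil markers reached 131 CPM (next highest liver 22.6), the stellate cell and fibroblast markers 397 (next 313), the cholangiocyte markers 75.0 (next 40.9), the central vein endothelium markers 69.0 (next 42.5) and the sinusoidal and other endothelial markers 403 (next 355). The general hepatocyte markers reached 135594 CPM (next 93589) and the periportal genes 127850 (next 95828), *Alb* being part of both sums. These rankings rest on the TMM scaling, and TPM was not summed. In TPM, the stellate marker *Dcn* reached 123 in WT APAP livers and 126 in vehicle livers labelled KO. *Apoa1* reached 13254 TPM in WT APAP livers and 15539 in APAP livers labelled KO. By contrast, *Alb* (64824.5 TPM) and the neutrophil marker *S100a9* (128 TPM) were highest in the WT APAP group. Without WT APAP replicate 1, 4 of the 10 genes passed as lower in WT livers, namely *Glul*, *Oat*, *Slc1a2* and *Slc22a3*, beside 0.314% of all genes, and the log2 fold change of *Glul* there was -1.82. The part of red blood cell RNA and of the other lists in the values of the 10 genes was not tested.

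**Figure D4:**
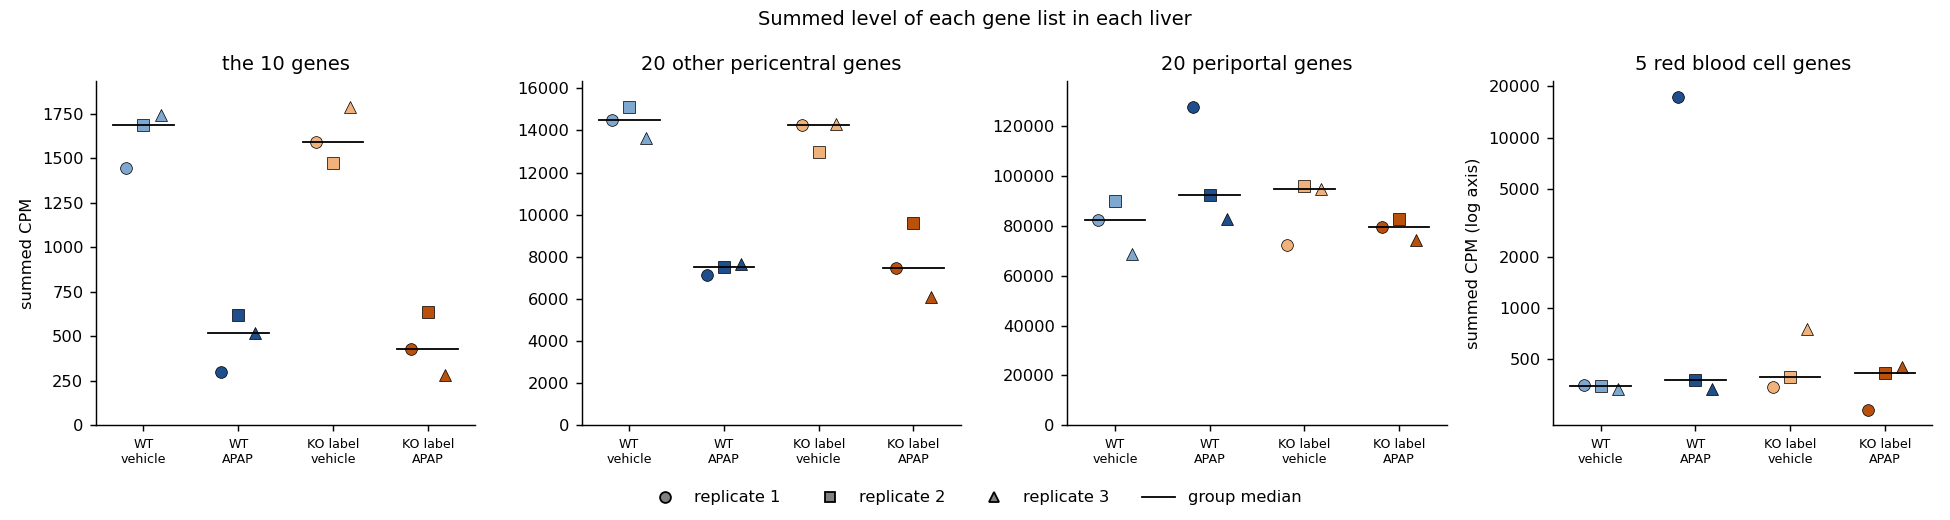
Summed CPM of 4 gene lists in each liver, with 1 symbol per replicate number and a bar at the group median (n = 3 livers a group), on linear axes from 0 except for the log axis of the red blood cell genes. Both pericentral lists are lower in every APAP liver than in any vehicle liver, the periportal sums, which are mostly *Alb*, overlap, and WT APAP replicate 1 stands apart at 17366 CPM in the red blood cell genes.

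Next, a wider list of 20 other pericentral genes was set beside 20 periportal genes. Summed over the list, the other pericentral genes gave 13626 to 15136 CPM in WT vehicle livers and 7142 to 7654 CPM after APAP, and 12957 to 14291 CPM and 6096 to 9599 CPM under the KO label, without overlap. The 10 genes summed to 1447 to 1790 CPM in vehicle livers and 284 to 638 CPM in APAP livers. Each sum was also taken without the gene of the highest mean in its list, a choice made after the data were seen. Neither pericentral sum then overlapped between treatments, with 734 to 985 CPM beside 93.0 to 295 CPM for the 10 genes without *Oat*, and 5315 to 6639 CPM beside 2791 to 4251 CPM for the other pericentral genes without *Cyp2e1*. The periportal sums overlapped, at 68578 to 95828 CPM with vehicle and 74185 to 127850 CPM after APAP, but most of each was *Alb*. The other 19 periportal genes summed to 25543 to 31987 CPM in WT vehicle livers and 21027 to 26766 CPM after APAP, and to 19997 to 28598 and 18729 to 22724 CPM under the KO label. Without *Alb* the median sum was thus lower after APAP under both labels, at 24258 beside 27081 CPM and at 20719 beside 27291 CPM, with ranges that overlapped. Over 12 livers, 14 of the 20 other pericentral genes were lower and 1 higher (median log2 fold change -0.86). Of the 20 periportal genes, 5 were lower and 1 higher, with a median of -0.23. The lists also differ in level, and no test was made of the difference between them. Among the other pericentral genes, the nuclear receptor CAR (*Nr1i3*) fell by 1.18 on the log2 scale (adjusted p = 0.000147), *Cyp2e1* by 1.06 (adjusted p = 0.000262), *Gulo*, an enzyme of ascorbate synthesis, by 0.95 (adjusted p = 0.000718), the bile acid and drug uptake carrier *Slco1b2* by 0.97 (adjusted p = 0.00146) and *Cyp1a2* by 0.90 (adjusted p = 0.00785). *Cyp2e1* itself went from 8400 ± 218 to 3687 ± 490 CPM in WT livers and from 7724 ± 283 to 4050 ± 1128 CPM under the KO label (SD, n = 3 each). The 1 gene that rose was the vasopressin receptor *Avpr1a* (0.81, adjusted p = 0.00935). In WT livers alone 0 of the 20 passed edgeR's adjusted threshold. There 9 had an unadjusted p-value under 0.05, as did 2817 of all 15693 genes. Under the KO label 11 passed, all lower, where 9.60% of all genes were lower. The periportal genes that fell were *Pck1*, the entry enzyme of gluconeogenesis (-1.31, adjusted p = 0.000272), *Hal* (-0.63), *Gls2* (-0.56), *Asl* (-0.53) and *Fbp1* (-0.50), and *Cdh1*, which encodes E-cadherin, rose (1.16, adjusted p = 0.0437). *Avpr1a*, *Fbp1* and *Cdh1* are named because they complete these counts and were chosen after their values were seen. Of 6 general hepatocyte markers, 0 passed edgeR's test over 12 livers, and 0 had an unadjusted p-value under 0.05 (median 0.21).

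Ligands upstream of the 10 genes were examined over 12 livers, in a list that also held *Wls* and *Porcn*, which do not encode ligands. Of the 25 genes listed, 11 were tested (*Wls* and *Porcn* among them), 1 rose and 1 fell (median log2 fold change 0.15). The 14 not tested had at most 13 counts in any liver. *Rspo3*, whose product sustains pericentral Wnt signaling, had 2.72 ± 0.50 CPM with vehicle and 4.82 ± 0.69 CPM after APAP in WT livers, and 2.76 ± 0.65 and 4.89 ± 2.26 CPM under the KO label (SD, n = 3 each). It rose over 12 livers by 0.83 on the log2 scale (SE 0.22, adjusted p = 0.0168) and did not pass within either label (adjusted p = 0.139 in WT livers and 0.131 under the KO label). *Wnt2* had 3.66 ± 0.40 and 3.35 ± 0.46 CPM with vehicle and APAP in WT livers and a log2 fold change over 12 livers of -0.09 (SE 0.18, adjusted p = 0.751). For *Wnt9b*, the other ligand of central vein endothelium, the value was -0.24 (SE 0.37, adjusted p = 0.677), at 19 to 121 counts per liver. *Wnt5b* had 10.7 ± 3.59 CPM with vehicle and 3.98 ± 1.39 CPM after APAP in WT livers, and 8.01 ± 1.82 and 3.24 ± 0.80 CPM under the KO label (SD, n = 3 each), and it fell over 12 livers (log2 fold change -1.36, SE 0.22, adjusted p = 0.000803). *Wnt6*, at 3.09, and *Wnt4*, at -0.31, did not pass the threshold (adjusted p = 0.0533 and 0.493).

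Among 12 tested Wnt receptor genes, 2 rose and 2 fell, where 14.0% of all 16509 genes tested rose and 11.4% fell. The same shares stand beside every list count over 12 livers. The Frizzled gene *Fzd5* rose by 0.93 on the log2 scale (adjusted p = 0.00191) and the co-receptor gene *Lrp5* by 0.59 (adjusted p = 0.00691), while *Fzd4* fell by 0.78 (adjusted p = 0.0361) and *Lgr4*, a relative of *Lgr5*, fell by 0.54 (adjusted p = 0.0129). Of 24 genes that relay the signal inside the cell, 3 rose and 2 fell, with a median of 0.10. *Tcf7*, which encodes a TCF/LEF factor, rose by 1.14 (adjusted p = 0.000558), the casein kinase gene *Csnk1e* by 0.65 (adjusted p = 0.00632) and *Gsk3b* by 0.37 (adjusted p = 0.0233, named after its value was seen). *Btrc*, which encodes the ubiquitin ligase subunit that recognizes β-catenin, fell by 0.54 (adjusted p = 0.00521), and the β-catenin inhibitor gene *Ctnnbip1* by 0.66 (adjusted p = 0.0138). Of 7 tested secreted or membrane-bound inhibitors (*Apcdd1* and *Kremen1* being the membrane-bound ones), 1 rose (*Frzb*, 1.18, adjusted p = 0.00897) and 1 fell (*Notum*, -0.52, adjusted p = 0.0431). The remaining 9 inhibitors had at most 35 counts in any liver.

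Other Wnt target genes went both ways. Of 16 tested, 6 rose and 3 fell over 12 livers (median log2 fold change 0.51). *Myc*, a growth regulator, rose from 7.49 ± 5.01 to 87.3 ± 28.5 CPM in WT livers and from 6.11 ± 5.04 to 70.1 ± 6.09 CPM under the KO label (SD, n = 3 each), a log2 fold change of 3.53 (adjusted p = 6.64e-05). *Sox9*, which is also a cholangiocyte marker, rose by 3.20 (adjusted p = 2.59e-05), *Zfp703* by 1.48 (adjusted p = 0.000409) and *Tcf7* by the value above. The 3 that fell were *Cyp2e1*, *Cyp1a2* and *Notum*, of which the P450 genes stand in the pericentral list as well. In WT livers 2 of 14 tested were higher and 0 lower by edgeR (1.62% and 0.427% of all genes). There 8 had an unadjusted p-value under 0.05, as did 2817 of all 15693 genes. Under the KO label 4 were higher and 2 lower (13.0% and 9.60% of all genes).

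**Figure D5:**
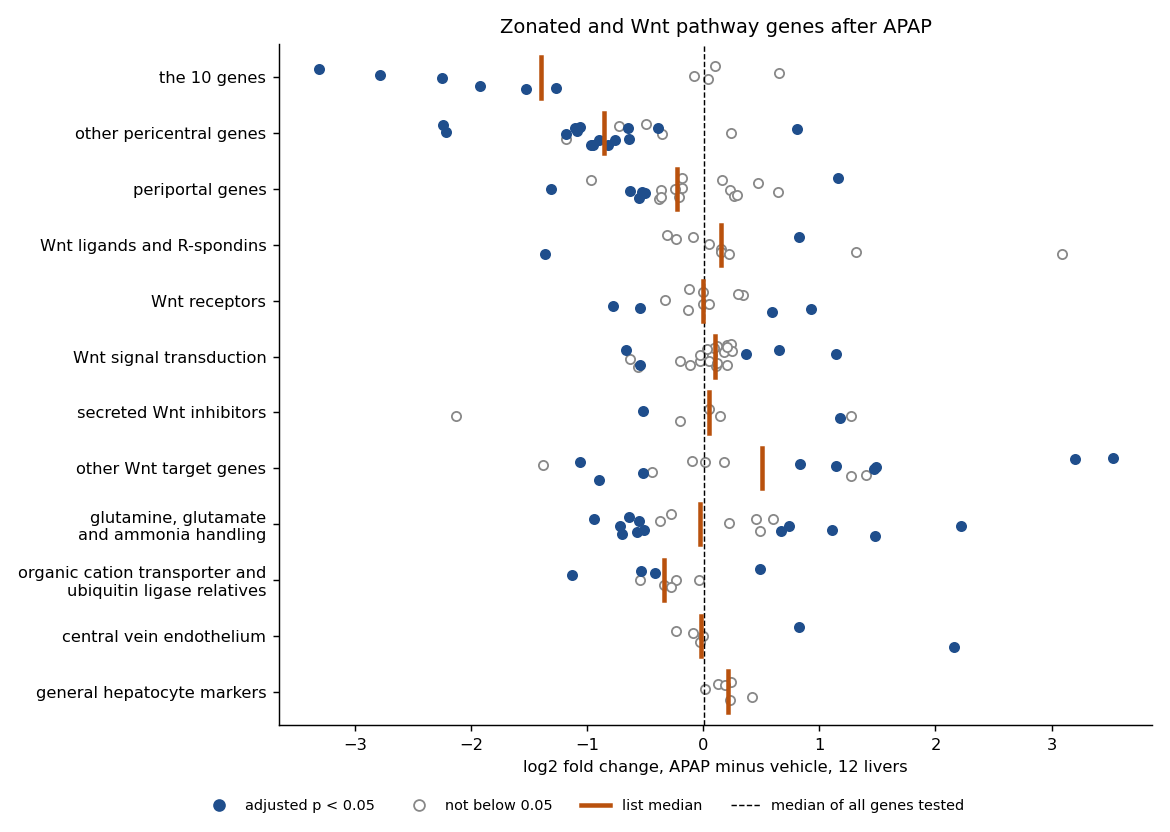
Log2 fold change of each tested gene, APAP against vehicle over 12 livers, by gene list. Filled points have an adjusted p-value under 0.05 (edgeR), orange bars are list medians and the dashed line is the median of all 16509 genes tested. The medians of the 10 genes (-1.40) and of the other pericentral genes (-0.86) lie furthest to the left, and the Wnt ligand, receptor and signal transduction lists lie around 0.

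Genes that work beside *Glul*, *Oat*, *Rhbg* and *Slc1a2* in glutamine, glutamate and ammonia handling were examined over 12 livers, where 5 of 18 tested rose and 7 fell (median log2 fold change -0.03). *Aldh18a1*, which makes the proline and ornithine precursor from glutamate, rose by 2.22 (adjusted p = 0.00143) from a low level (6 to 18 counts in WT vehicle livers). Others that rose, named after their values were seen, were *Slc1a4* (1.48) and *Slc38a2* (0.67). Among those that fell were *Gpt*, alanine aminotransferase, by 0.64 (adjusted p = 0.002), and *Aldh4a1*, of proline breakdown, by 0.58 (adjusted p = 0.00183). *Slc1a4* belongs to the same transporter family as *Slc1a2* and moved in the opposite direction. Of 9 tested relatives of *Slc22a3* and *Rnf43* (organic cation transporters and transmembrane ubiquitin ligases), 3 fell and 1 rose. *Slc47a1*, which encodes the organic cation exporter MATE1, fell from 102 ± 6.42 to 44.7 ± 4.50 CPM in WT livers and from 97.4 ± 15.7 to 46.3 ± 7.91 CPM under the KO label (SD, n = 3 each), a log2 fold change of -1.13 (adjusted p = 2.88e-05), and it passed under both labels (adjusted p = 0.0164 in WT livers and 0.00487 under the KO label). *Rnf167* fell by 0.41 (adjusted p = 0.00594), and *Rnf149* rose by 0.49 (adjusted p = 0.00919).

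Markers of other liver cells were read beside these results over 12 livers. Of 6 central vein endothelium markers, 2 rose (*Thbd*, 2.16, adjusted p = 0.00191, and *Rspo3*) and 0 fell, while 4 of the 6 had a log2 fold change below 0 and the median was -0.02. Their sum was 16.0 to 23.8 CPM in vehicle livers and 26.5 to 69.0 CPM in APAP livers, and without *Thbd*, which accounts for most of that rise, 12.7 to 15.1 CPM and 13.0 to 18.2 CPM, with overlap. Of 11 sinusoidal and other endothelial markers, 4 rose (*Lyve1*, 1.09, *Cdh5*, 0.73, *Stab1*, 0.42, and *Pecam1*, 0.41) and 0 fell. However, 6 of the 11 had a log2 fold change below 0, and the median was -0.04. Under the KO label alone, 1 was called higher and 2 lower. Of 5 tested cholangiocyte markers, 2 rose (*Sox9* and *Epcam*, 0.82). The sum of the list was 12.0 to 26.3 CPM with vehicle and 27.5 to 75.0 CPM after APAP, the highest in WT APAP replicate 1. Most of that rise was *Sox9*, from 3.53 ± 2.35 to 27.6 ± 9.87 CPM in WT livers (SD, n = 3 each). Under the KO label *Sox9* went from 1.80 ± 0.41 to 19.7 ± 5.79 CPM. *Epcam*, *Krt19* and *Krt7* had at most 1.52 CPM in any liver. The neutrophil sum was 1.20 to 19.7 CPM with vehicle. After APAP it was 12.7 to 131 CPM in WT livers, or up to 22.6 CPM without WT APAP replicate 1. Under the KO label it was 1.15 to 8.55 CPM after APAP. All 6 tested neutrophil markers had a log2 fold change above 0 (median 2.74) and an unadjusted p-value under 0.05 by edgeR. Of all 16509 genes, 6132 had such a p-value. Only 1 of the 6 (*Cxcr2*) passed the adjusted threshold. *Camp* had 0 counts in every liver, while *Ly6g* and *Ltf* had at most 6 and 4. Of 6 Kupffer cell markers 0 passed edgeR's test and 0 had an unadjusted p-value under 0.05, and of 9 stellate cell markers 1 fell (*Lrat*, -0.88). The part of these cells in the values of the 10 genes was not tested.

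The genes whose profile over 12 livers lay nearest to that of *Axin2* were *4930445K14Rik* (root-mean-square difference 0.269), *Ap5b1* (0.361) and *Fam83h* (0.379), where the *Axin2* profile had a root mean square of 0.681. None of the 3 passed edgeR's test over 12 livers (adjusted p = 0.507, 0.606 and 0.125).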

How the data were processed

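Liver RNA-seq of 12 mice was used, with groups taken from the sample labels. Per gene and liver, the authors deposited whole-number read counts without normalization, FPKM (not used here) and TPM, both scaled by transcript length. The submitters' processing notes name FastQC 0.11.7, Trimmomatic 0.38, HISAT2 2.1.0, Bowtie2 2.3.4.1, StringTie 2.1.3b and mm10 (GRCm38), and their settings, strand included, are not given in the sources used here. TPM serves for levels between genes.

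Counts were TMM-scaled, filtered by filterByExpr and tested by the quasi-likelihood method of edgeR 4.0.16 (R 4.3.3). P-values were adjusted by Benjamini-Hochberg across the genes tested (threshold 0.05), using the 6 livers compared, or all 12. The study tested log-scale TPM, run here with limma 3.58.1 (pseudocounts 1 and 0.1, quantile-normalized) as an alternative. Other alternatives were DESeq2 1.42.0 (size factors, Wald test), no filter, at least 10 counts in every liver, 1 fit of 12 livers, a block for the replicate number, exact permutation and leaving out each liver. Likeness used log2 CPM (prior count 2, mean at least 1). The code was tested on simulated data.

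The 10 genes and all lists were chosen with earlier results of these data known. Also named were at most 4 genes a list with the smallest unadjusted p-value over 12 livers, *Wnt2*, *Wnt9b*, *Rspo3*, *Cyp2e1*, *Cyp1a2*, *Gna12*, and the 3 genes most like *Glul* and *Axin2*. Coordinates and promoters are from RefSeq tables of GRCm38. Some genes that these rules would name are not reported here.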

Additional observations from a re-analysis of the deposited data

How the results depend on the processing

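With 3 livers a group, calls near the threshold were unstable. In WT livers, where 2 of the 10 genes passed as lower, beside 0.427% of all genes, DESeq2's Wald test called 5 (3.42% of all genes), all 12 livers in one fit called 4 (3.36%), limma called 1 at either pseudocount (0.414% and 0.452%), and fits with 1 liver left out called 0 to 4 (0% to 0.796%). *Glul* and *Oat* lost their WT call with limma, while *Slc22a3* gained one. Under the KO label, where *Axin2* passed as higher, beside 13.0% of all genes, limma at either pseudocount (10.5% and 9.81%) and all 12 livers in one fit (8.51%) called 0, and fits with 1 liver left out called 0 to 1 (7.73% to 12.2%). Over 12 livers the count higher was 0 to 1 with 1 liver left out, the 1 being *Axin2* without WT APAP replicate 1, where 15.8% of all genes were called higher. The counts lower stayed between 5 and 6 under the KO label and over 12 livers in all alternatives run. *Slc22a3* was not tested with a minimum of 10 counts in every liver, since WT APAP replicate 1 had 8.

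The replicate numbers of the labels were fitted as a block. Livers with the same number did not deviate together (correlations of their deviations from -0.422 to 0.0274, against -0.199 to 0.508 for different numbers), so the numbers were not taken as pairs. With the block, 0 of the 10 genes passed as lower in WT livers, beside 0.00637% of all genes (*Glul*, adjusted p = 0.0634, and *Oat*, 0.11), and *Lgr5* over 12 livers had a log2 fold change of -1.28 with an adjusted p = 0.0595. The block changed no other call on the 10 genes.

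Signs changed only for values that had not passed the test. *Axin2* in WT livers was -0.0079 with limma on log2(TPM + 0.1). *Rnf43* under the KO label was -0.0013 with DESeq2's size factors, -0.0012 with DESeq2's Wald test, -0.11 and -0.13 with limma at pseudocounts of 1 and 0.1, -0.0085 with the block and -0.0056 with all 12 livers in one fit. *Rnf43* over 12 livers was -0.051 and -0.060 with limma at those pseudocounts. With 1 liver left out, WT values ranged from -0.014 to 0.92 for *Axin2*, -0.95 to 0.040 for *Tbx3*, -0.19 to 0.36 for *Rnf43* and -0.10 to 0.37 for *Znrf3*. Those of *Rnf43* ranged from -0.21 to 0.18 under the KO label and from -0.070 to 0.16 over 12 livers, and those of *Tbx3* over 12 livers from -0.28 to 0.14. The cause of these changes was not tested. Low counts limit *Slc22a3*, *Lgr5* and *Rhbg* most.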
